A study of Bos taurus with 15 samples.

Results

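The genes described here encode the nuclear subunits of respiratory complexes II, III, IV and V and the electron carrier cytochrome c, measured in biceps brachii muscle of cattle. A list of 41 genes was taken by name from the make-up of these complexes, with no threshold on a measured value, and its members were looked up among the probes of the array. A probe was found for 40 of the 41, among 15363 genes with enough values to be tested. The exception was COX6A1, the widely expressed isoform of a complex IV subunit. Each of the 40 was read by 1 probe, printed as 2 spots. The list holds 4 subunits of complex II, 9 of complex III, cytochrome c, 11 measured subunits of complex IV and 15 of complex V.

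The respiratory chain sits in the inner mitochondrial membrane. Complex II, succinate dehydrogenase, passes electrons from succinate to ubiquinone. Complex III hands them to cytochrome c, and complex IV, cytochrome c oxidase, passes them to oxygen. Complexes III and IV pump protons, and complex V, ATP synthase, uses the proton gradient to make ATP. Complex II is encoded in the nucleus alone, whereas complexes III, IV and V also contain subunits made from the mitochondrial genome. Skeletal muscle holds muscle isoforms of some complex IV subunits, and glucocorticoids are known to act on muscle protein and energy metabolism.

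Total RNA of 15 animals was hybridised to 1-colour bovine oligonucleotide arrays from Agilent, 1 array per animal, to compare muscle of cattle given prednisolone, a synthetic glucocorticoid, with muscle of controls. The 8 treated animals (P25 to P32) received 30 mg of prednisolone per head and day by mouth for 35 days. The 7 control animals (C17, C18 and C20 to C24) are each labelled CONTROL. The treatment text attached to the control samples describes the growth promoters Finaplix and Revalor, the latter also with dexamethasone, and does not say that a control animal received them. The muscle was collected at slaughter, the design text speaks of cows, and the labels give no age or breed. Control RNA was prepared by RNeasy Mini columns, whereas treated animals had TRIzol extraction and an RNeasy MinElute cleanup. The labels do not say whether controls and treated animals came from the same trial. Treatment and extraction method, and trial if it differed, cannot be told apart in any difference below.

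All values are log2 intensities, so that a difference of 1 is a 2-fold change, and every difference is treated minus control. In bulk tissue, fewer cells of a type and less RNA per cell cannot be told apart. Of 12 muscle fibre markers, 10 had a probe and all 10 were well above background on every treated array. Their summed level ran from 20.83 to 21.20 in controls and from 20.82 to 21.11 in treated animals. Some libraries held transcripts of other tissues. The summed level of 10 testis germ cell markers, all measured, ran from 11.35 (C18) to 18.15 (C20) in controls and from 8.80 (P28) to 17.70 (P31) in treated animals. Of these 10, only 2 were well above background on every treated array. For 8 measured thymocyte markers of 10, it ran from 7.59 to 14.48 (C17) in controls and from 7.40 to 12.96 (P30) in treated animals. Of these 8, 4 were well above background on every treated array, and RAG1 was not well above background on any treated array. The low ends of both sums thus include weak signals. Results were therefore also computed without C20 and P31, and without C17, C20 and P31.

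No subunit of complexes II to V passed the test. With limma and Benjamini-Hochberg adjustment over all genes tested, 0 of the 40 had an adjusted p under 0.05, and the smallest adjusted p among them was 0.996. The same test called 0 of 15363 genes, which is 0% of the array. At an unadjusted p under 0.05, limma listed 1 of the 40, ATP5MF, against 500 of all genes (3.25%), and the exact Wilcoxon test listed 0 of the 40 against 427 of all genes. The difference was negative for 25 of the 40 (62.5%) and positive for 15, beside 47.9% negative over all genes. The median difference was -0.032 for the 40 and 0.010 for all genes.

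The sizes were small as well as uncalled. For all 40 subunits the 95% interval of the difference excluded any 2-fold change, up or down. The same held for 11225 of 15363 genes tested. Among genes above background on all treated arrays with values on all arrays, it held for 8997 of 10030. The median half-width of that interval was 0.33, against 0.45 for all genes tested. The treated and control animals overlapped for all 40, while 0.221% of all genes had groups that did not overlap. By the scanner flag all 40 probes were well above background on all 8 treated arrays, and none was saturated there. COX6B1 nevertheless had no value in P26, so its flag and its values disagree on that array.

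The balance of signs was set by few animals. Without C24, 15 of the 40 were negative. Without C18, 32 of the 40 were negative. With arrays weighted by their estimated quality, the number was 33, and with arrays set to equal medians it was 21. Leaving out C20 alone gave 31, P31 alone 21, P28 alone 29 and C23 alone 20. The moves of C20 and P31 were opposite, so that leaving out both gave 25, and leaving out C17 as well gave 26.

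**Figure D1:**
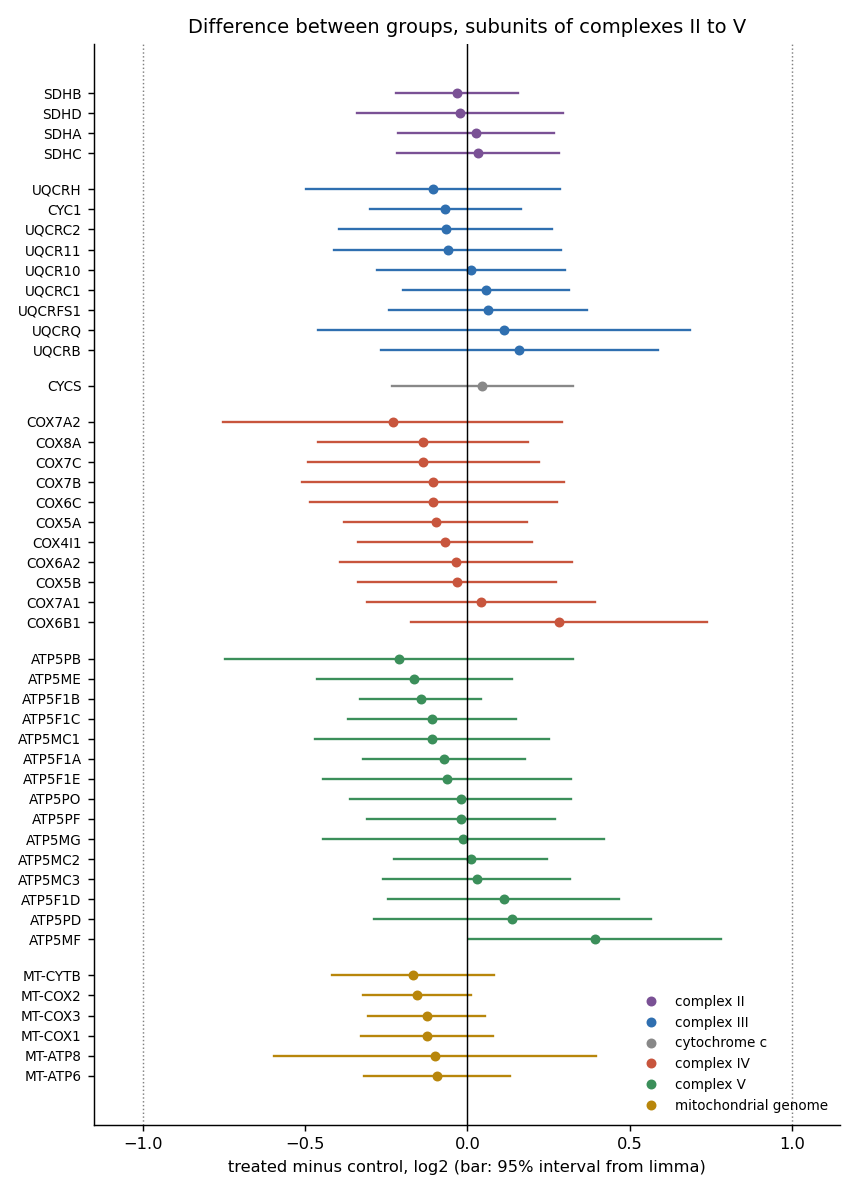
Difference between treated and control animals (log2, x axis) for the 40 measured subunits and 6 subunits encoded by the mitochondrial genome, grouped by complex and sorted by size. Points are limma estimates and bars are 95% intervals; the dotted lines mark a 2-fold change. All intervals lie between the dotted lines, and the ATP5MF interval alone does not cross 0, with a lower bound of 0.004.

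Complex II showed differences near 0 for each of its 4 subunits. SDHA, the flavoprotein that oxidises succinate, ran from 16.77 to 17.25 in controls with a median of 17.01, and from 16.79 to 17.43 in treated animals with a median of 16.97. Its lowest animal was the control C17 and its highest the treated P27, and the groups overlapped almost fully. The difference was 0.027, with a 95% interval from -0.21 to 0.27.

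SDHB, the iron-sulphur subunit that carries the electrons onward, ran from 16.54 to 16.92 in controls (median 16.74) and from 16.54 to 16.86 in treated animals (median 16.73). The ranges coincided at their lower ends, and 3 of 8 treated animals lay above the control median. The difference was -0.032 (95% interval -0.22 to 0.16), and its p, the smallest in complex II, was 0.724 by limma and 0.620 by exact permutation. The narrow interval bounds any change of SDHB more tightly than that of most subunits, since its SD between animals within groups was 0.12.

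The pair of membrane anchors, SDHC and SDHD, also held close to 0. SDHC had the largest absolute difference of the complex, 0.034 (95% interval -0.22 to 0.28). It ran from 15.02 to 15.62 in controls (median 15.33) and from 15.05 to 15.53 in treated animals (median 15.36), so that all treated animals lay inside the control range. SDHD differed by -0.021, and 1 of 8 treated animals was above the control median. The median difference over complex II was 0.0026, with 2 of the 4 negative, 3 without C18 and 0 without C24.

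Complex III held 5 positive and 4 negative differences around a median of 0.011. Without C18 the median was -0.056 with 6 of 9 negative, and without C24 it was 0.062 with 2 of 9 negative. Its catalytic centre is formed by the mitochondrially encoded cytochrome b with the Rieske protein and cytochrome c1. UQCRFS1, the Rieske iron-sulphur protein, ran from 13.82 to 14.71 in controls (median 14.04) and from 14.12 to 14.51 in treated animals (median 14.24). All 8 treated animals lay above the control median, yet all 8 also lay inside the control range. Its difference was 0.064 (95% interval -0.24 to 0.37). Among the controls C22, C23 and C24 were high.

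CYC1, cytochrome c1, ran from 16.85 to 17.29 in controls (median 17.21) and from 16.79 to 17.32 in treated animals (median 16.99). The treated P26 was the lowest and the treated P28 the highest of all animals, so the groups overlapped over the whole control range. The difference was -0.069, with a 95% interval from -0.30 to 0.16.

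The large core proteins UQCRC1 and UQCRC2, which frame the matrix side of the complex, differed by 0.057 and -0.067. UQCRB, a small subunit near the ubiquinone site, had the largest absolute difference and the smallest p of the complex. It was read by the dimmest probe of the complex, at a mean of 7.78. It ran from 6.89 to 8.31 in controls (median 7.73) and from 7.34 to 8.37 in treated animals (median 7.84). C20 was the lowest control, and 6 of 8 treated animals lay above the control median. The difference was 0.16 (95% interval -0.27 to 0.59; p = 0.434 by limma and 0.447 by exact permutation) and was 0.026 without C20.

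UQCRQ, a small subunit that contacts cytochrome b, varied most between animals of all 40 subunits, with a within-group SD of 0.54. It ran from 11.26 (C18) to 12.90 (C24) in controls (median 12.29) and from 11.32 (P31) to 12.93 (P28) in treated animals (median 12.37). Each group thus held animals at both ends of a span of more than 1 log2 unit. The difference was 0.11 (95% interval -0.46 to 0.69), and it was -0.038 without C18. The hinge protein UQCRH, which helps cytochrome c dock, differed by -0.11. The small subunits UQCR10 and UQCR11 differed by 0.011 and -0.061.

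CYCS encodes cytochrome c, the mobile carrier between complexes III and IV. It ran from 13.35 to 14.24 in controls (median 14.11) and from 13.88 to 14.12 in treated animals (median 13.97). The treated animals were tightly grouped, with an SD of 0.092 against 0.33 in controls, where C18 and C20 were low. The difference was 0.047 (95% interval -0.23 to 0.33), and it was -0.050 without C18.

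Complex IV had the most one-sided set of signs, with 9 of 11 measured subunits negative and a median difference of -0.098. None passed the test, and the lean rested partly on the controls C24 and C17. Without C24, 7 of the 11 were negative with a median of -0.022, and without C18, 10 of the 11 with a median of -0.15. Without C17, 8 of the 11 were negative with a median of -0.036. Leaving out C17, C20 and P31 gave 8 of the 11 with a median of -0.056. Under 4 other scalings of the arrays, 9 of the 11 stayed negative, with medians from -0.11 to -0.074.

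COX4I1, the regulatory subunit that binds ATP, differed by -0.070. COX5A and COX5B, a matrix subunit and a zinc-binding subunit, differed by -0.098 and -0.032. COX6B1, which helps join the monomers of the enzyme, had the largest absolute difference and the smallest p of the complex. It had 6 control and 7 treated values, from the dimmest probe of the complex (mean 7.45). It ran from 6.78 to 7.79 in controls (median 7.36) and from 7.21 to 8.21 in treated animals (median 7.61), and 5 of the 7 treated values lay above the control median. The difference was 0.28 (95% interval -0.18 to 0.74; limma adjusted p = 0.996), with the controls C18 and C20 low and the treated P28 high.

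The isoform pairs of complex IV could be compared in part. COX6A2 is the muscle isoform, and its widely expressed partner COX6A1 had no probe. COX6A2 ran from 15.04 to 15.96 in controls (median 15.66) and from 15.13 to 15.92 in treated animals (median 15.51), and every treated animal lay inside the control range. The difference was -0.034 (95% interval -0.39 to 0.32).

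COX7A1 is the muscle and heart isoform of another small subunit. It ran from 16.21 to 17.32 in controls (median 17.06) and from 16.56 to 17.33 in treated animals (median 16.90). Treated P28 matched the highest control C24, and C18 was the lowest of all animals. The difference was 0.042 (95% interval -0.31 to 0.39).

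COX7A2, the isoform found in most tissues, ran from 11.85 to 13.45 in controls (median 12.92) and from 12.12 to 13.15 in treated animals (median 12.49). The animals with the highest values were C17 at 13.45, C20 at 13.36 and P31 at 13.15. C17 had the highest summed thymocyte markers of the controls, and C20 and P31 had the highest testis markers of their groups. P30, with the highest thymocyte markers of the treated animals, was at 12.32. The part of those transcripts in COX7A2 was not tested. COX7A1 in the same libraries was at 17.06, 16.60 and 16.75, where its control median was 17.06 and its treated median 16.90. The COX7A2 difference was -0.23 (95% interval -0.75 to 0.29), and -0.059 without those 3 animals.

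The other small subunits of complex IV surround the catalytic core. COX6C differed by -0.10, and 0 of 8 treated animals lay above its control median. COX7B and COX7C differed by -0.11 and -0.14, and for each, 7 of 8 treated animals lay at or below the control median. COX8A differed by -0.14. Its probe was assigned to COX8A by accession, while the text of the array annotation calls it a heart form, so the isoform read by that probe is uncertain. An unnamed probe, which the annotation describes as a second copy of COX6C, differed by -0.017. Its lowest animal was P28 and its highest C20, whereas COX6C was lowest in C18 and highest in C24. Whether signals of near-identical copies are mixed in these values was not tested.

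Complex V had 10 negative and 5 positive differences with a median of -0.020. Without C18 the median was -0.12 with 12 of 15 negative, and without C24 it was 0.039 with 6 of 15 negative. With equal medians it was 0.0012 with 7 of 15 negative. ATP5F1A and ATP5F1B are the alpha and beta subunits of the catalytic head, where ATP is made. ATP5F1A ran from 15.58 to 16.24 in controls (median 16.10) and from 15.78 to 16.23 in treated animals (median 15.89). All treated animals lay inside the control range. The difference was -0.072, with a 95% interval from -0.32 to 0.18.

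ATP5F1B had the smallest within-group spread of all 40 subunits, with an SD of 0.12. It ran from 16.81 to 17.18 in controls (median 17.01) and from 16.68 to 17.05 in treated animals (median 16.83). Of 8 treated animals, 7 lay below the control median and P25 and P30 lay below every control. The difference was -0.14 (95% interval -0.33 to 0.043). An exact two-sided permutation test over all 6435 splits of the animals gave p = 0.040. It was run on the listed genes only, so no share over all genes stands beside that p. The unadjusted limma p was 0.121, and the limma adjusted p was 0.996. The difference lay between -0.19 and -0.11 over the alternatives tried.

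ATP5MF, the f subunit of the membrane part, had the largest difference of the 40. It was read by the dimmest probe of the 40, at a mean of 7.27 against a median of 15.44 over the members. It ran from 6.61 to 7.63 in controls (median 7.07) and from 7.05 to 8.13 in treated animals (median 7.40). Of 8 treated animals, 7 lay above the control median; P28 was highest and C18 and C20 lowest. The difference was 0.39 (95% interval 0.004 to 0.78), or 1.31-fold. The unadjusted p was 0.048 by limma and 0.050 by the exact permutation test, and the limma adjusted p was 0.996. Without C18 the difference was 0.32 with an unadjusted limma p of 0.105. Without C20 and P31 it was 0.36 with an unadjusted limma p of 0.084. An unnamed probe, which the annotation describes as isoform 2 of subunit f, had values in only 2 controls and 3 treated animals. It was well above background on 0 treated arrays, so it could not be set against ATP5MF.

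ATP5PB, the peripheral stalk subunit b, showed the most unequal spread. The controls C17, C22, C23 and C24 lay between 10.09 and 10.45, while C18 at 9.34, C20 at 9.41 and C21 at 8.53 lay lower. The 8 treated animals lay between 9.44 and 9.76 (median 9.59), inside the gap between those controls. None of the treated animals was above the control median of 10.09, yet the difference was -0.21 with a 95% interval from -0.75 to 0.33. The SD was 0.74 in controls and 0.095 in treated animals.

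The remaining subunits of complex V fill the central stalk, the rotor ring, the peripheral stalk and the membrane part. In the central stalk, ATP5F1C differed by -0.11, ATP5F1D by 0.11 and ATP5F1E by -0.063. The 3 genes for the rotor ring protein c, ATP5MC1, ATP5MC2 and ATP5MC3, differed by -0.11, 0.010 and 0.029. They encode the same mature protein, so no sum over them was formed from separate probes. In the peripheral stalk, ATP5PD differed by 0.14, ATP5PF by -0.019 and ATP5PO by -0.020. The membrane subunits ATP5ME and ATP5MG differed by -0.16 and -0.013.

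**Figure D2:**
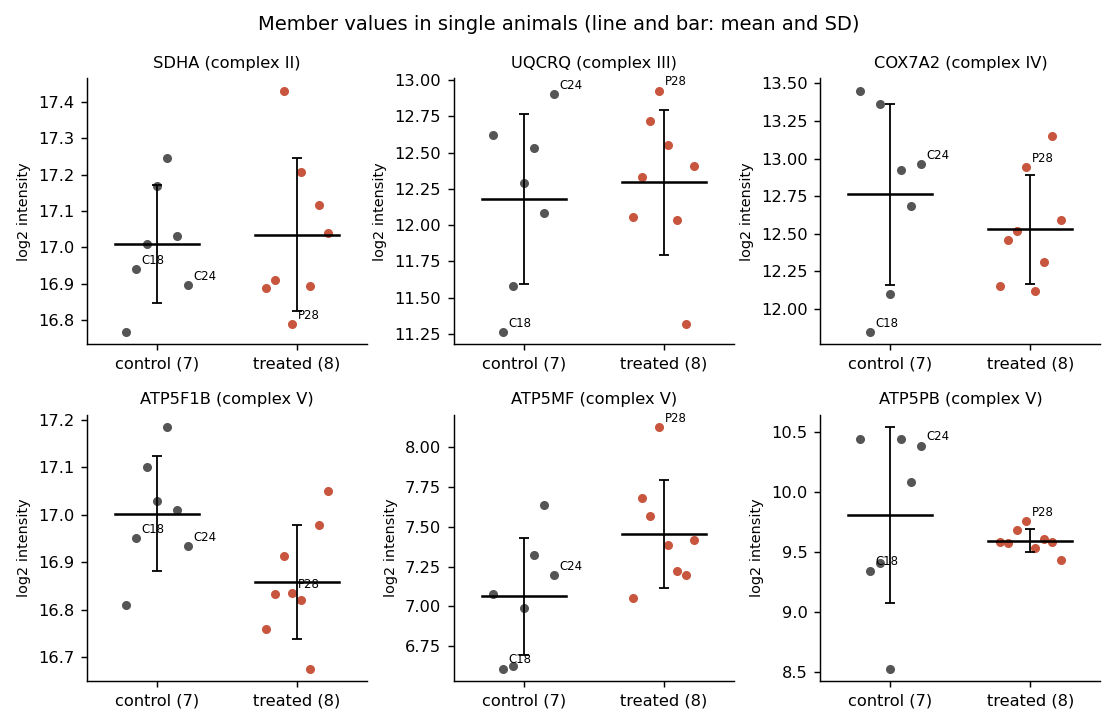
Values of 6 subunits in single animals (y axis, log2 intensity; each panel has its own scale), for 7 control and 8 treated animals, with the group mean (line) and SD (bar). The groups overlap in every panel. ATP5PB spans 8.53 to 10.45 in controls and 9.44 to 9.76 in treated animals.

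The median SD between animals within groups was 0.285 for the 40 subunits, and their median absolute difference between group means was 0.069. Over all genes tested these were 0.41 and 0.145, and group means vary less than single animals. Most subunits varied together between animals. The control C18 was the lowest of all 15 animals for 24 of the 39 subunits with values on every array (61.5%), while it was lowest for 9.74% of 11285 genes measured on every array. The control C24 was the highest for 15 of the 39 (38.5%), against 7.28% of all genes, and the treated P28 for 11 of 39 (28.2%), against 9.38%. C24 exceeded C18 for 37 of the 39, by a median of 0.89 and by up to 1.64 (3.12-fold) for UQCRQ. These animals were picked for their extreme values, so the counts are descriptions without a test.

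**Figure D3:**
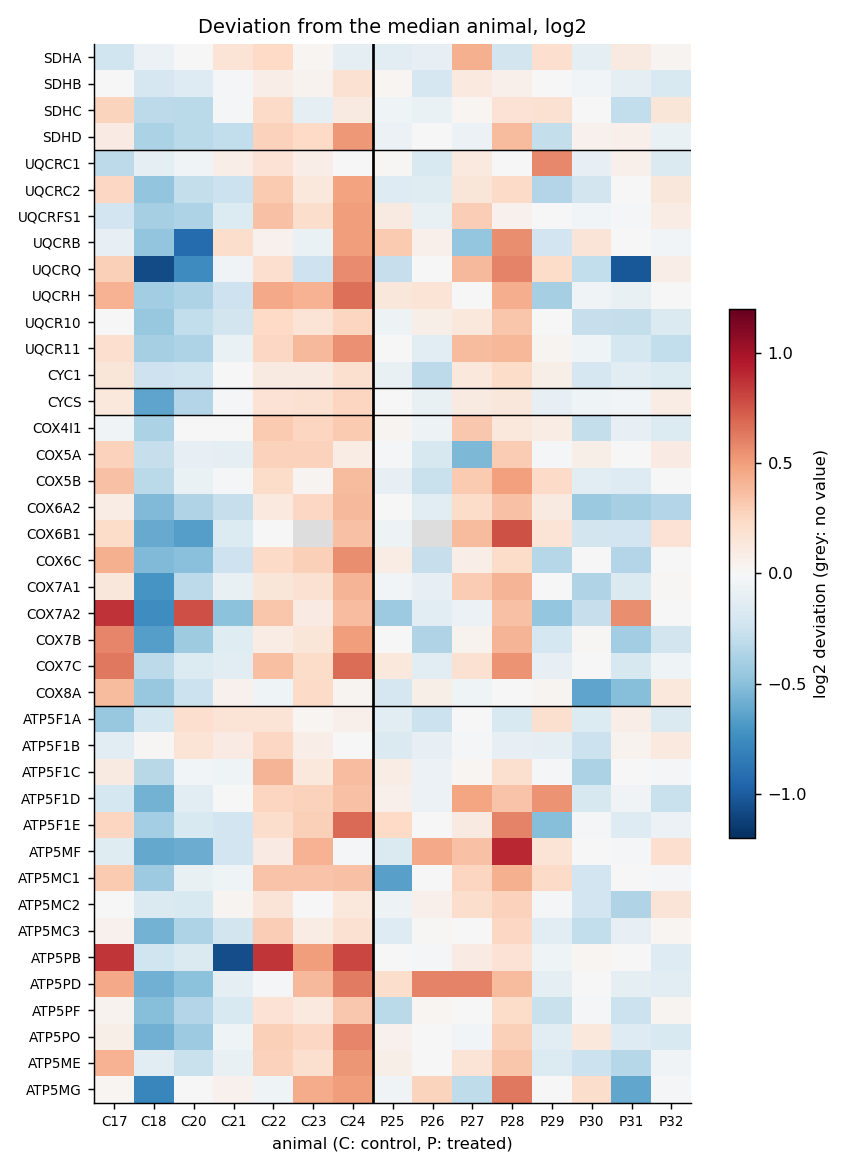
Deviation of each subunit (rows, grouped by complex) from its median animal in each of 15 animals (columns; controls left of the vertical line), in log2 units from blue (lower) to red (higher). C18 is low and C24 and P28 are high in most rows; rows such as SDHA, UQCRC1, ATP5F1A and ATP5F1B do not share the pattern. COX6B1 has no value in C23 and P26 (grey).

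Among the complexes, the animal pattern was shared but not equal in size. The mean deviation of C18 was -0.24 for complex II, -0.45 for complex III, -0.49 for complex IV and -0.41 for complex V. For C24 it was 0.17, 0.41, 0.37 and 0.36, in the same order. For P28 it was 0.097, 0.31, 0.32 and 0.32. Complex II thus deviated least in each of these animals. C17 stood apart in complex IV, at 0.37, while its deviation was 0.033, 0.073 and 0.11 in complexes II, III and V. C17 was the highest of all animals for COX7A2, COX7B, COX8A and SDHC.

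The first principal component of the deviations within groups summarised this pattern. It held 62.4% of the variance over 39 subunits, and 39.1% over all 11285 genes measured on every array. By complex, the share was 59.5% in II, 69.6% in III, 64.8% in IV and 62.7% in V. All these shares depend on the number of genes in a set and on their spread, so they do not rank the sets. Of 39 loadings, 36 were positive. The largest belonged to UQCRQ (0.31), ATP5PB (0.24), COX7B (0.22), ATP5PD (0.22) and UQCRH (0.21), which are small or accessory subunits. Those nearest 0 belonged to SDHA (-0.016), ATP5F1A (-0.016), ATP5F1B (-0.0093) and UQCRC1 (0.0046), all large proteins of the catalytic or core part. Size did not divide the subunits fully, with 0.17 for the large core protein UQCRC2 and 0.087 for the small rotor ring gene ATP5MC2. The values were not scaled to equal spread, so a loading also follows the SD of its probe. Without C18 and C24 the component still held 49.7%, with 35 of 39 loadings positive.

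The same contrast can be read gene by gene. Between C18 and C24, SDHA differed by -0.045 and ATP5F1B by -0.017 (C24 minus C18). The values were 0.11 for UQCRC1 and 0.27 for ATP5F1A, against 1.64 for UQCRQ, 1.29 for ATP5MG and 1.16 for COX7B. Both the animals and the genes in this comparison were picked as the ends of their ranges, and each value is a difference within 1 probe.

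**Figure D4:**
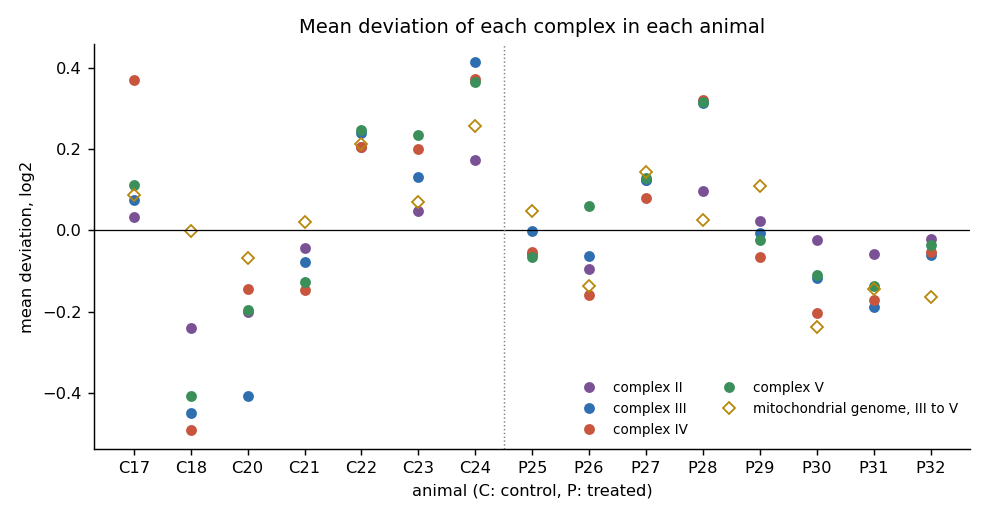
Mean deviation from the median animal (y axis, log2) for the subunits of complexes II to V (filled circles) and for 6 mitochondrially encoded subunits of complexes III to V (open diamonds), in each of 15 animals (x axis). C18 lies lowest for the nuclear complexes. Its mean is near 0 for these 6 mitochondrial genes, with MT-ATP8 low and 5 of the 6 above their median. C24 and P28 lie high for the nuclear complexes.

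Other transcripts in the same libraries were set beside this pattern. The mean deviation of C18 was -0.35 for the 25 assembly factors with values on every array, -0.28 for 7 core subunits of complex I and -0.29 for 81 cytosolic ribosomal proteins, and it was 0.19 for the muscle fibre markers. Cytosolic ribosomal proteins were also high in P28 (0.26) and C24 (0.21). They differed from the subunits in other animals, with 32.1% of them lowest in P31. All 5 fibroblast markers were measured and well above background on the treated arrays. Their summed level ran from 14.55 (C24) to 15.90 (C18) in controls and from 13.87 (P32) to 16.16 (P25) in treated animals. Other marker lists did not all run this way. In C18 and C24 the mean deviation was -1.30 and -1.26 for 4 adipocyte markers, and 0.081 and 0.50 for 5 endothelial markers. For 5 leukocyte markers it was 0.87 and -0.38, in the direction of the fibroblast markers. The part of these differences between libraries in the subunit pattern was not tested.

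The spread between animals was wider in controls than in treated animals. The control SD exceeded the treated SD for 32 of 39 subunits (82.1%), against 55.7% of all genes measured on every array and 54.3% of the cytosolic ribosomal proteins. The median SD was 0.33 in controls and 0.22 in treated animals. Without C18 the count was 23 of 39 (59.0%), against 52.7% of all genes, and without C24 it was 30 of 39 (76.9%), against 55.5%. Without C18, C20 and C24 it was 14 of 39 (35.9%), near the 39.8% of all genes. Leaving out extreme controls lowers the control SD by construction, so these counts only show how much each animal carried.

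**Figure D5:**
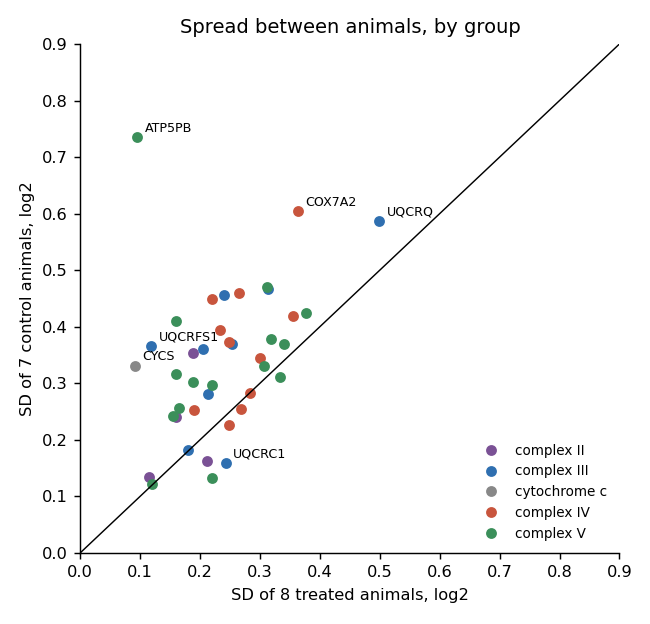
SD between the 7 control animals (y axis) against SD between the 8 treated animals (x axis), both in log2 units, for 40 subunits coloured by complex; the line marks equal spread. Most points lie above the line, and ATP5PB lies farthest from it, with SDs of 0.74 and 0.095.

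Complexes III to V also contain subunits made from the mitochondrial genome, and the array held probes for 6 of them. This list was added after the values had been seen. None passed the test. The difference was negative for all 6, with a median of -0.13, and for 6 of 7 complex I subunits of the same genome, with a median of -0.054. Over all genes 47.9% were negative. The muscle fibre markers leaned the same way, with 9 of 10 negative and a median of -0.078, or 6 of 10 under quantile normalization, and their part in the result was not tested. Under 4 other scalings all 6 mitochondrial genes of complexes III to V were negative, with medians from -0.14 to -0.079, and without C24 5 of the 6 were. The complex I median turned to 0.054 without C24.

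MT-COX2, the subunit that receives electrons from cytochrome c, ran from 18.14 to 18.32 in controls (median 18.19) and from 17.89 to 18.19 in treated animals (median 18.03). None of the treated animals reached the control median, and 7 of 8 lay under the lowest control. The difference was -0.15 (95% interval -0.32 to 0.012), or 1.11-fold lower. The exact two-sided permutation test gave p = 0.0050, with no share over all genes to set beside it. The unadjusted limma p was 0.066, and the limma adjusted p was 0.996. With quantile normalization the difference was -0.071, with an unadjusted limma p of 0.413.

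MT-CYTB, cytochrome b of complex III, differed by -0.17 (95% interval -0.42 to 0.082). The catalytic subunit MT-COX1 and its partner MT-COX3 each differed by -0.13. In complex V, MT-ATP6 and MT-ATP8 differed by -0.092 and -0.099. The mean deviation of C18 was -0.0025 over these 6 mitochondrial genes, with the treated P30 lowest at -0.24 and C24 highest at 0.26. The means of C18 and C24 rested largely on MT-ATP8, at 12.35 in C18 and 13.95 in C24. C18 was above the median animal for 5 of the 6, with a median deviation of 0.066. The median deviation of C24 was 0.071, under the 0.15 of C17. Over the 7 complex I genes of the same genome, C18 was at -0.25, with 6 of 7 below the median animal, and C24 was at 0.65, the highest animal for 5 of 7.

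Genes that assemble, accompany or regulate these complexes were read from lists of their own, and 0 of them passed the test. Of 39 listed assembly factors, 28 were measured, with 22 positive and 6 negative differences and a median of 0.076. FASTKD2, a mitochondrial RNA-binding protein, differed by 0.33 (unadjusted limma p = 0.080, exact permutation p = 0.083). COX10, which acts in making the haem of complex IV, differed by 0.32 (p = 0.113 by limma and 0.119 by exact permutation). The lean of the assembly factors rested on few animals. Their median was -0.0037 without C18 (12 of 27 positive), 0.0043 without C20 (15 of 28) and 0.033 without P28 (16 of 28).

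Of 12 other subunits and isoforms, 9 were measured, with 4 positive and 5 negative differences. HIGD2A, an assembly partner of complex IV, differed by 0.38 (unadjusted limma p = 0.120, exact permutation p = 0.131), and NDUFA4, now counted with complex IV, by -0.13 (p = 0.358 by limma and 0.332 by exact permutation). COX8B, a muscle isoform of the smallest subunit, differed by -0.030.

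Of 18 regulators of mitochondrial genes, 16 were measured, with 13 positive and 3 negative differences and a median of 0.10. NRF1, a transcription factor for many respiratory genes, had the smallest p (0.035 by limma, unadjusted; adjusted p 0.996) and a difference of 0.80. Its probe stood above background on only 2 of the 8 treated arrays, and the difference is therefore not given as a fold. POLG, the mitochondrial DNA polymerase, differed by 0.16 (p = 0.188 by limma and 0.136 by exact permutation), and its 8 treated values all exceeded the control median. The coactivator PPARGC1A differed by -0.29, with a 95% interval from -1.50 to 0.93.

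The 7 core subunits of complex I served as the neighbouring enzyme. They had 2 positive and 5 negative differences with a median of -0.019. NDUFV1, which takes electrons from NADH, differed by -0.10 (p = 0.482 by limma and 0.451 by exact permutation), and NDUFS1, the largest iron-sulphur subunit, by -0.052 (p = 0.681 by limma and 0.649 by exact permutation).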

How the data were processed

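Arrays were scanned at high and low sensitivity and read with Agilent Feature Extraction 9.5, per the labels' design text (9.5.1.1, per the file headers). The deposited value table holds background-subtracted intensity per spot on a linear scale for 15 arrays. R 2.11.1 is named in the submitters' processing notes, and the sources used here do not name how the authors scaled the arrays. Scanner files were used for the 8 treated arrays, for flags and annotation. Slides and scan times of the controls were not used here, so batches could not be tested as blocks.

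Values were taken as log2 of the deposited intensities, spots of a probe were averaged, and arrays were shifted to an equal 75th percentile. A gene needed 3 values per group and was read by its brightest probe. Of the 40 member probes, 31 were named by accession through the RefSeq table (assembly ARS-UCD2.0), 5 by array symbol and 4 by gene identifier. limma 3.58.1 (R 4.3.3) compared the groups over 15363 genes, with Benjamini-Hochberg adjustment at 0.05, and was tested on simulated data. Listed genes with values on every array were also tested by exact two-sided permutation over 6435 splits, with a smallest possible p of 0.000155. The number of arrays limits the precision and p-values measure only the spread between these samples. Members and lists were chosen with earlier results of these data known. Named with full values were the catalytic subunits, cytochrome c, the isoform pairs, the largest difference and smallest p of each complex, the 3 largest spreads, and 2 genes with the smallest p of each pathway list. Animal-level counts, ribosomal proteins and mitochondrial probes were added after the values were seen. Alternatives covered scaling, probe choice, filters, array weights, a robust trend fit, and animals left out.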

Additional observations from a re-analysis of the deposited data

Results flagged for a closer look

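Among 80 groups of animals tested, 1 group for each subunit and treatment, 2 held an animal far from the others, where chance gives about 1 in 20. UQCRC1, a core protein of complex III, was 16.51 in the treated animal P29, and the next highest treated animal was at 16.05. ATP5F1C, the central stalk subunit of ATP synthase, was 15.52 in the treated animal P30, and the next lowest treated animal was at 15.83. Without P29 the UQCRC1 difference was -0.019, against 0.057 with it.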

How the results depend on the processing

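Of 28 settings, 6 leave the estimates of the subunits as they are and bear only on the test or the genes tested. Under the other 22 settings, 799 of 880 values kept the direction and 81 turned it. Across all settings 0 subunits were called, and the smallest adjusted p was 0.653 by limma. The direction never turned for 20 of the 40, among them ATP5MF and ATP5F1B. Medians of complexes II, III and V turned sign with single animals left out. The number of genes called on the whole array was 0, and it was 1 without C20 and P31, 1 without C17, C20 and P31, and between 0 and 1 with each animal left out; the gene was PZP or, without C23, ZNF696, and the cause was not tested. Leaving out each animal turned the sign for 19 subunits, whose lowest and highest differences were SDHA (-0.031 to 0.066), SDHB (-0.062 to 0.0022), SDHC (-0.016 to 0.085), SDHD (-0.085 to 0.064), UQCRC1 (-0.019 to 0.090), UQCRC2 (-0.15 to 0.013), UQCRQ (-0.038 to 0.25), UQCR10 (-0.056 to 0.062), UQCR11 (-0.14 to 0.020), CYCS (-0.050 to 0.097), COX5B (-0.097 to 0.021), COX6A2 (-0.11 to 0.040), COX7A1 (-0.068 to 0.12), ATP5F1E (-0.14 to 0.039), ATP5MC2 (-0.028 to 0.063), ATP5MC3 (-0.050 to 0.092), ATP5PF (-0.093 to 0.046), ATP5PO (-0.12 to 0.077) and ATP5MG (-0.15 to 0.079). Array weights gave -0.030 for SDHA, -0.0020 for SDHC, -0.019 for UQCRC1, -0.067 for UQCRFS1, -0.064 for UQCR10, -0.043 for CYCS, -0.016 for COX7A1 and -0.077 for ATP5MC3. Equal medians gave 5.82e-05 for SDHD, 0.0026 for ATP5PF, 0.0012 for ATP5PO and 0.0089 for ATP5MG. Without C17, C20 and P31 the values were -0.032 for SDHA, -0.0084 for UQCRC1, -0.041 for UQCRFS1, 0.020 for COX5B and 0.073 for ATP5MG, and without C20 and P31 they were -0.013 for ATP5MC3 and 0.073 for ATP5MG. Cyclic loess gave -0.0062 for UQCR10 and -0.0077 for ATP5MC2, and quantile normalization -0.0060 for ATP5MC2. The cause of these turns was not tested. Each member had 1 named probe, so averaging the probes of a gene changed no member and further named probes could not be compared. No paired analysis was possible because the groups share no animal number. Signal over background limits the dim probes of ATP5MF, COX6B1 and UQCRB most. Extraction method and treatment cannot be told apart under any setting.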
